A study of Mus musculus with 6 samples.

Results

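The unfolded protein response and the integrated stress response were followed here through 34 genes in knee joint cartilaginous tissue of *Hbb*-cKO and WT mice at postnatal day 6 (P6). The members were taken by gene name, 34 of the 55487 genes in the count table, as 12 genes of the PERK and ATF4 branch, 5 of the IRE1 and XBP1 branch, 15 of the ATF6 branch with its endoplasmic reticulum (ER) chaperones, and 2 of the OASIS family. All 34 had counts in every library and entered the test. None of them differed between *Hbb*-cKO and WT at an adjusted p of 0.05 in edgeR, a threshold that 0.105% of all 17175 tested genes passed. The ER chaperones were the most abundant members and 14 of the 15 genes of their branch had a positive log2 fold change, with a median of 0.17, whereas *Atf4* and *Ddit3* had fold changes close to 0. The largest fold change belonged to *Slc7a11*, which was high in *Hbb*-cKO replicates 1 and 3 but not in replicate 2.

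When misfolded proteins collect in the ER, 3 sensors in its membrane respond. PERK (*Eif2ak3*) phosphorylates the translation factor eIF2α, which slows protein synthesis while favouring translation of ATF4, IRE1 (*Ern1*) splices the messenger RNA of XBP1, and ATF6 moves to the Golgi, where proteases release its transcription factor domain. The same phosphorylation of eIF2α by other kinases, among them the haem-regulated kinase HRI (*Eif2ak1*), makes up the integrated stress response to haem shortage, amino acid shortage and viral RNA. Chondrocytes secrete large amounts of collagen and proteoglycan, so their ER carries a heavy folding load, and the OASIS family member BBF2H7 (*Creb3l2*) is known in mice for its part in the secretion of cartilage matrix.

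Poly(A) RNA was sequenced from 3 *Hbb*-cKO and 3 WT libraries of P6 knee joints, and counts per gene were deposited. The labels describe the *Hbb*-cKO mice as a conditional knockout of *Hbb* in chondrocytes and the others as wildtype. In the study, *Hbb*-cKO mice carried floxed *Hbb* alleles (*Hbb* F/F, C57BL/6J background) with *Col2a1-Cre* ERT2, a tamoxifen-inducible Cre driven by the *Col2a1* promoter in chondrocytes, and a *Prx1-Cre* cross was also made. Which Cre line, tamoxifen schedule and number of mice stood behind each library, and whether the WT mice carried floxed alleles or Cre, were not stated in the paper or the labels. The p-values reflect the variation among these libraries. Total counts ran from 17405688 to 20969914 in *Hbb*-cKO and from 16544800 to 17475496 in WT.

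The tissue held more than cartilage, and some libraries stood apart. *Hbb-bs* was at 1606, 2257 and 2006 CPM (counts scaled to a fixed library size) in *Hbb*-cKO, against 6394, 5016 and 2848 CPM in WT, and *Hbb-bt* at 2589, 3187 and 3009 CPM in *Hbb*-cKO, against 10417, 7432 and 4064 CPM in WT. The α-globin gene *Hba-a1*, not targeted by the knockout, held 69829, 108427 and 98989 counts in *Hbb*-cKO, against 282538, 202092 and 96606 in WT. *Hba-a2* held 9021, 14903 and 14504 counts in *Hbb*-cKO, against 43668, 30175 and 13447 in WT. The part of blood in the globin levels was not tested. All 10 chondrocyte markers, such as *Col2a1* and *Acan*, had counts in every library, and their summed level was lowest in *Hbb*-cKO replicate 1, at 16670 CPM, against 32080 to 55180 CPM in the other libraries. All 10 proliferation markers were higher in each *Hbb*-cKO library than in each WT library, with sums of 462 to 529 CPM in *Hbb*-cKO, against 267 to 333 CPM in WT. Skeletal muscle markers summed to 24210 to 32990 CPM in *Hbb*-cKO, against 29770 to 48420 CPM in WT, with the highest sum in WT replicate 3, and erythroid markers summed to 125 to 151 CPM in *Hbb*-cKO, against 200 to 524 CPM in WT. The lower erythroid sum was not shared by most of its list. Of the 7 erythroid markers tested, 5 had a positive log2 fold change and 2 a negative one, with a median of 0.29. Endothelial markers summed to 592 to 679 CPM in *Hbb*-cKO, against 458 to 569.5 CPM in WT. In WT replicate 2, genes with short transcripts were higher and genes with long transcripts lower than in the other libraries. A smaller trend in WT replicate 3 ran the opposite way. The libraries also differed in sex make-up. *Hbb*-cKO replicates 1 and 3 and WT replicate 3 held counts of both *Xist* (5052, 8079 and 2725) and the Y-linked *Eif2s3y* (470, 548 and 885), as tissue of both sexes together would, whereas *Hbb*-cKO replicate 2 had 6 counts of *Xist* and WT replicates 1 and 2 had none of Y-linked genes. The part of sex in the members' levels was not tested. In such bulk tissue, fewer cells of a type and less RNA per cell cannot be told apart.

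Promoter sequences of members are shown because the branches are known by the short DNA elements their factors bind. RefSeq promoter windows on GRCm38.p6, running from 250 bases before to 50 bases after each transcription start, were at hand for 30 of the 34 members, and *Creb3l1*, *Atf6*, *Hyou1* and *Manf* had none. Each window was searched on both strands for the ER stress element ERSE (CCAAT and CCACG, 9 bases apart), its variant ERSE-II (ATTGG and CCACG, 1 base apart), the XBP1 element UPRE (TGACGTGG) and the ATF4 element CARE (TGATGNAA). The letters of ERSE and ERSE-II share their CCACG, and no member held both elements. Stretches that hold the matches are printed 5′ to 3′ on the strand of the gene, with the defining bases of the element in capitals. They are, for ERSE, *Hspa5* (chr2:34772000-34772079, plus strand), *Hsp90b1* (chr10:86705525-86705664, minus strand), *Calr* (chr8:84847052-84847111, minus strand) and *Pdia6* (chr12:17266469-17266528, plus strand).
Hspa5: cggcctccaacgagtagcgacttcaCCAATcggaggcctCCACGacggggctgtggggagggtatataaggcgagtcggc
Hsp90b1: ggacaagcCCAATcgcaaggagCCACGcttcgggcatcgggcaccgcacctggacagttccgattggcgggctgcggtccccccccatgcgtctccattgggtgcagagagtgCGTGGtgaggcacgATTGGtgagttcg
Calr: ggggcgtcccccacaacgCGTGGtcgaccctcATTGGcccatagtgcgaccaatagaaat
Pdia6: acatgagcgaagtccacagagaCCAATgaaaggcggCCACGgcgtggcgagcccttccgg
*Herpud1* (chr8:94386304-94386398, plus strand) held ERSE-II and CARE, and *Slc7a11* (chr3:50443634-50443703, minus strand) and *Chac1* (chr2:119351027-119351076, plus strand) held CARE.
Herpud1: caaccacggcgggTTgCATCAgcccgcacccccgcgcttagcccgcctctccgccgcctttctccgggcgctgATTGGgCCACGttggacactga
Slc7a11: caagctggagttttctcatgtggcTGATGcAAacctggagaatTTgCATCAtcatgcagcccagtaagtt
Chac1: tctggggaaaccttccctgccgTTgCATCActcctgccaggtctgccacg

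ERSE was present in 7 of the 30 member windows, all of them in the chaperone branch (7 of its 12 windows), against 0.137% of the 27025 genes with a window. Besides the promoters printed above, *Canx*, *Creld2* and *Dnajc3* held it. *Hsp90b1* held it at 2 places, starting 212 and 107 bases before the start, whereas *Hspa5* had it 65 bases before the start. ERSE-II was present in *Dnajb11* and *Herpud1*, against 0.0444% of all genes, and UPRE in 0 of the 30, against 0.714% of all genes. CARE was present in 6 member windows (*Asns*, *Atf3*, *Chac1*, *Herpud1*, *Slc7a11* and *Trib3*), 5 of them in the ATF4 branch, against 4.51% of all genes, and *Slc7a11* had it 66 and 47 bases before the start, on opposite strands. Among tested genes with a window, the shares were 0.176% for ERSE, 0.0756% for ERSE-II, 1.02% for UPRE and 2.77% for CARE. These matches describe letters in a window and not bound sites. Since the branches are known by these elements, the shares do not test the branches. The median log2 fold change (*Hbb*-cKO over WT) was 0.18 in the 7 members with ERSE, against 0.076 in the 23 members whose windows lacked it. For ERSE-II it was 0.033 in members with the element, against 0.087 in those without, and for CARE -0.033 against 0.12, and none of these differences was tested.

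The levels of the members spanned a wide range, with the chaperones at the top. Per length, given as CPM per kb of exons so that genes can be set side by side, *Calr*, a calcium-binding lectin chaperone, was highest at 277 ± 7.89 CPM per kb in *Hbb*-cKO and 228 ± 28.3 in WT (mean ± s.e.m., n = 3 libraries each). *Pdia3*, an oxidoreductase that works with the lectin chaperones, followed at 165 ± 8.69 CPM per kb in *Hbb*-cKO and 141 ± 16.2 in WT, then *Hsp90b1*, which encodes GRP94, at 117 ± 5.35 CPM per kb in *Hbb*-cKO and 93.8 ± 6.62 in WT. *Hspa5*, which encodes the chaperone BiP that also holds the sensors inactive, was at 105 ± 10.3 CPM per kb in *Hbb*-cKO and 86.8 ± 5.93 in WT. Within libraries, *Hsp90b1* was above *Hspa5* in *Hbb*-cKO replicates 1, 2 and 3 and in WT replicate 2. It was below *Hspa5* in WT replicates 1 and 3, so that their order is not settled. *Atf4* ranked 6 in both groups, at 79.6 ± 7.79 CPM per kb in *Hbb*-cKO and 82.1 ± 0.758 in WT, and was the most abundant transcription factor among the members. The 3 sensors were far lower per length, with *Eif2ak3* at 8.53 ± 0.425 CPM per kb in *Hbb*-cKO and 7.96 ± 0.414 in WT, *Atf6* at 4.12 ± 0.119 in *Hbb*-cKO and 3.75 ± 0.443 in WT, and *Ern1* at 2.19 ± 0.126 in *Hbb*-cKO and 2.45 ± 0.369 in WT. *Slc7a11* was lowest of all, at 0.311 ± 0.125 CPM per kb in *Hbb*-cKO and 0.0554 ± 0.0173 in WT. By exon length, the 7 highest members stood in the same order in both groups. The order depended on the length used. Per kb of the longest annotated transcript, *Pdia6* ranked 3 in WT at 141.6 CPM, above *Hsp90b1* at 117.3 and *Hspa5* at 99.97.

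**Figure D1:**
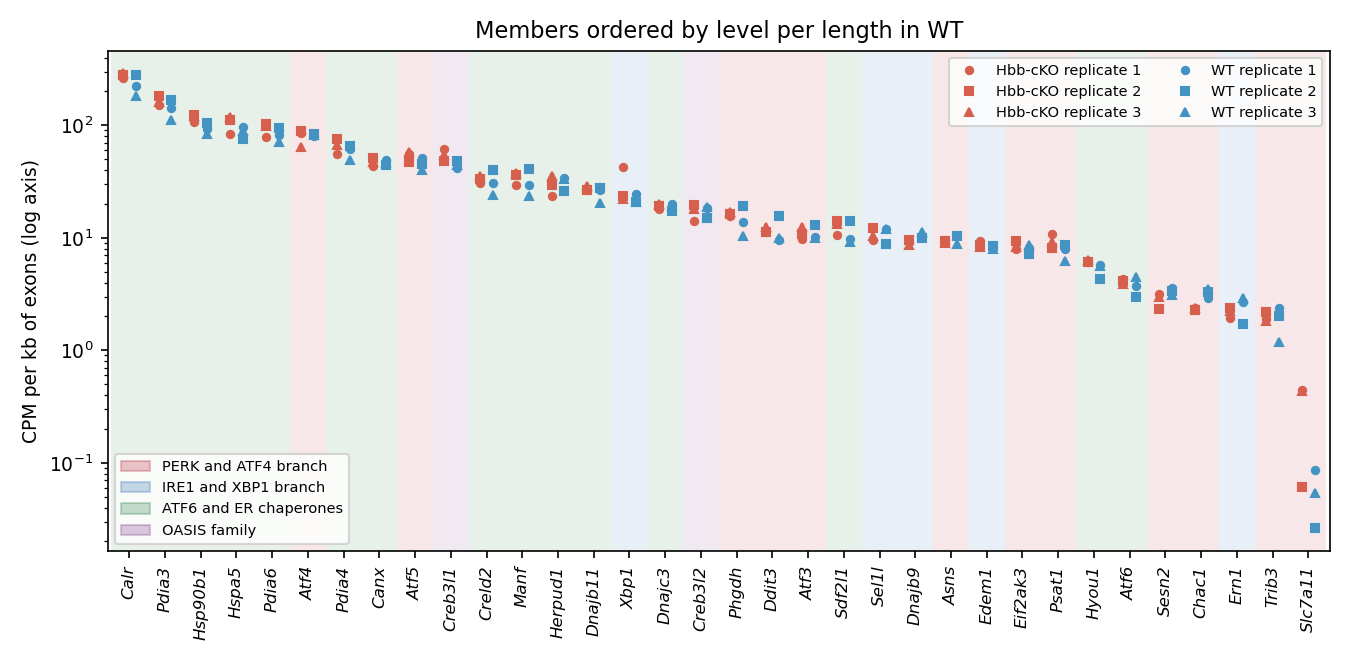
CPM per kb of exons (log axis) of the 34 members in each library, ordered by the WT mean and shaded by branch, with *Hbb*-cKO libraries in red and WT libraries in blue. *Calr* leads at 277 CPM per kb in *Hbb*-cKO and 228 in WT, and *Slc7a11* is the lowest, with *Hbb*-cKO replicate 2 far below the other *Hbb*-cKO libraries.

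The question set by the design is whether these genes differ in cartilage with *Hbb* deleted in chondrocytes, and across the members the differences were small. By the quasi-likelihood test of edgeR, 0 of the 34 genes passed the adjusted threshold, and 2 had an unadjusted p under 0.05, *Slc7a11* with a higher and *Chac1* with a lower mean in *Hbb*-cKO. That is 5.88% of the members, where 10.1% of all tested genes had such a p. DESeq2 called 1 member, *Slc7a11*, where it called 1.45% of all genes. The libraries of both genotypes did not overlap for 4 members, or 11.8%, against 17.7% of all tested genes. The members' median log2 fold change was 0.12, against -0.014 over all tested genes, and 24 of the 34 (70.6%) had a log2 fold change above 0, as had 47.5% of all tested genes. With *Slc7a11* set aside, the 95% intervals of the log2 fold change of all other members lay between -0.87 (*Chac1*) and 1.02 (*Xbp1*). The summed level of the 34 members was 4249, 4742 and 4654 CPM in *Hbb*-cKO, against 4077, 4301 and 3622 CPM in WT. WT replicate 2 exceeded *Hbb*-cKO replicate 1, so that the sums overlapped.

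**Figure D2:**
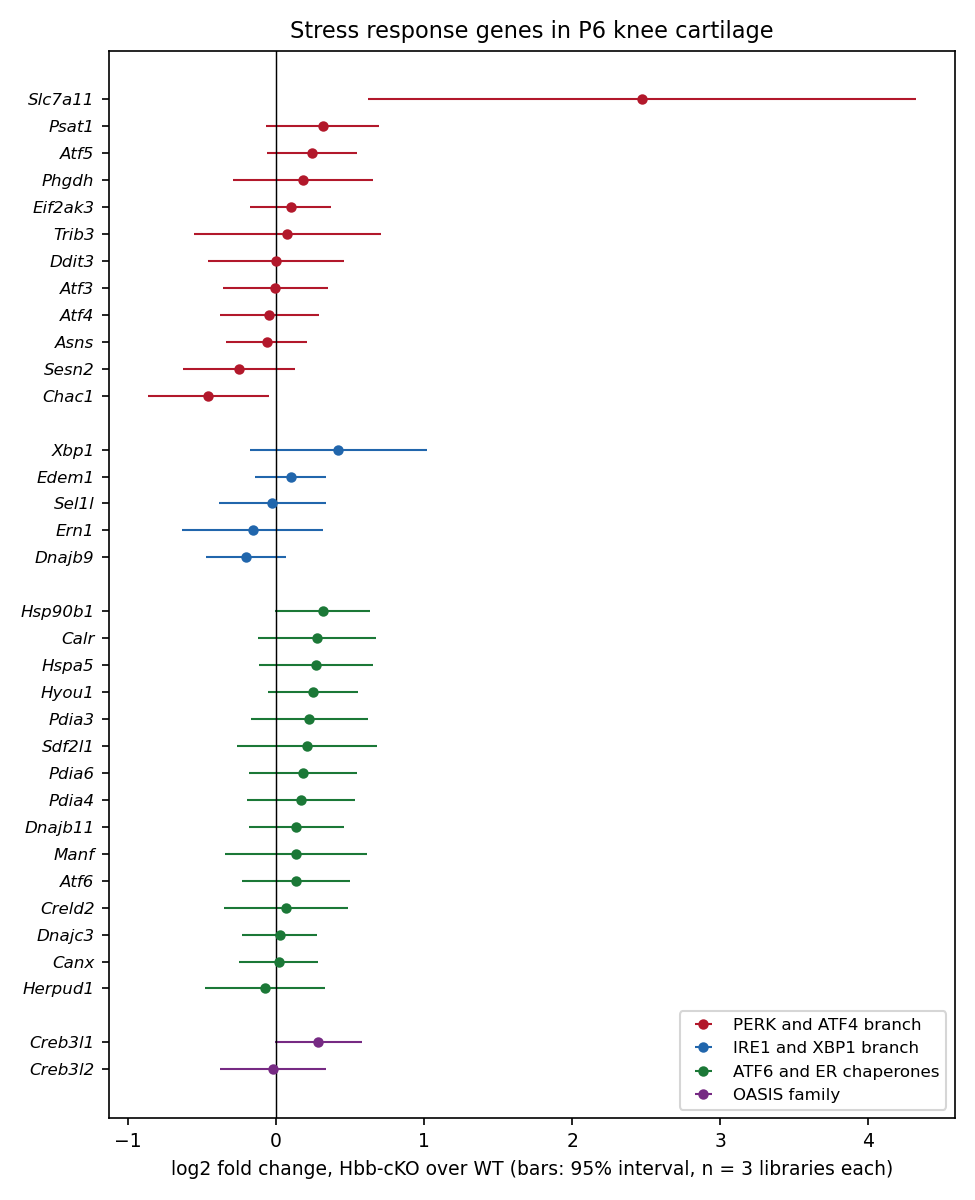
Log2 fold change of each member in *Hbb*-cKO over WT (x axis) with its 95% interval from edgeR, n = 3 libraries each, by branch. All intervals but those of *Slc7a11* and *Chac1* include 0, and 14 of the 15 points of the ATF6 and chaperone branch lie to the right of 0.

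No member of the ATF6 and chaperone branch passed the test. Their median log2 fold change was 0.17, the highest value was 0.32 (*Hsp90b1*) and the lowest was -0.073 (*Herpud1*). The lowest adjusted p in this branch was 0.497 in edgeR. *Hspa5* was at 357, 471 and 501 CPM in *Hbb*-cKO replicates 1, 2 and 3, against 407, 321 and 374 CPM in WT. *Hbb*-cKO replicates 2 and 3 were above all WT libraries and replicate 1 was below WT replicates 1 and 3, for a log2 fold change of 0.27 (95% interval from -0.11 to 0.65, edgeR adjusted p = 0.628). *Hsp90b1* was at 427, 494 and 489 CPM in *Hbb*-cKO, against 372, 427 and 335 CPM in WT. Each *Hbb*-cKO library was above each WT library, the closest pair being *Hbb*-cKO replicate 1 at 427.2 CPM and WT replicate 2 at 426.7 CPM, and the log2 fold change was 0.32 (standard error, s.e., 0.14, 95% interval from -0.0038 to 0.63). Its exons share 415 bases with a gene on the opposite strand, *1810014B01Rik*, with 119 to 183 counts per library, and 133 bases with *Gm25745* on the same strand, with 114 to 260 counts, few beside those of *Hsp90b1*. *Hyou1*, which encodes the BiP exchange factor GRP170, was the other member with no overlap and a higher mean, at 44.4, 44.1 and 46.3 CPM in *Hbb*-cKO, against 41.8, 31.4 and 40.2 CPM in WT (log2 fold change 0.25, s.e. 0.13, edgeR adjusted p = 0.568). Over the whole table, 8.7% of tested genes had no overlap with *Hbb*-cKO above WT.

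The libraries of the lectin chaperones and of the disulfide isomerases overlapped between the groups. *Calr* was at 754, 805 and 832 CPM in *Hbb*-cKO, against 641, 805 and 525 CPM in WT. WT replicate 2 matched *Hbb*-cKO replicate 2, whereas the other WT libraries were below all of *Hbb*-cKO, and the log2 fold change was 0.28 (95% interval from -0.12 to 0.68, edgeR adjusted p = 0.634). *Canx*, the membrane-bound lectin chaperone, was at 203, 239 and 222 CPM in *Hbb*-cKO, against 228, 209 and 218 CPM in WT, a log2 fold change of 0.019 with a 95% interval from -0.25 to 0.28. Among the disulfide isomerases, *Pdia3* was at 479.9, 571 and 503 CPM in *Hbb*-cKO, against 450.0, 527 and 351 CPM in WT. *Pdia4* and *Pdia6*, which form and reshuffle disulfide bonds beside BiP, had means of 159 ± 13.4 and 349.9 ± 27.8 CPM in *Hbb*-cKO, against 141 ± 12.0 and 308 ± 24.9 CPM in WT. In all 3 isomerases WT replicate 3 was the lowest of the 6 libraries, and the log2 fold changes were 0.23, 0.17 and 0.18, or 0.085, 0.054 and 0.089 without that library. Without it the log2 fold change of *Calr* was 0.14.

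Among the co-chaperones of BiP, *Dnajb11*, which encodes ERdj3 and delivers clients to BiP, was at 86.7, 85.4 and 92.7 CPM in *Hbb*-cKO, against 85.3, 89.9 and 65.3 CPM in WT (log2 fold change 0.14), and *Dnajc3*, which encodes p58IPK, had means of 98.5 ± 3.16 CPM in *Hbb*-cKO, against 96.7 ± 4.19 CPM in WT. *Sdf2l1*, a partner of ERdj3, was at 11.8, 15.7 and 14.6 CPM in *Hbb*-cKO, against 10.7, 15.6 and 10.1 CPM in WT (log2 fold change 0.21, 95% interval from -0.26 to 0.69, and 0.096 without WT replicate 3). *Manf* and *Creld2* encode ER proteins known in mice to be induced in chondrocytes that retain misfolded matrix proteins. *Manf* was at 105, 128 and 133 CPM in *Hbb*-cKO, against 103, 145 and 83.1 CPM in WT, and *Creld2* at 42.2, 45.9 and 48.1 CPM in *Hbb*-cKO, against 42.0, 54.7 and 33.0 CPM in WT. For both genes WT replicate 2 was the highest and WT replicate 3 the lowest of all libraries, with the *Hbb*-cKO libraries between them, and the log2 fold changes were 0.14 (95% interval from -0.34 to 0.62) and 0.069 (95% interval from -0.35 to 0.49). Reads of *Manf* cannot be told apart from those of *Dcaf1* on the opposite strand over 146 exon bases if counting took no strand into account. *Herpud1*, part of the ER membrane complex for protein degradation, was the member of this branch with a negative log2 fold change, at 54.4, 68.8 and 82.2 CPM in *Hbb*-cKO, against 78.8, 60.3 and 77.1 CPM in WT. *Atf6* itself was at 39.9, 38.1 and 36.1 CPM in *Hbb*-cKO, against 34.6, 27.5 and 41.7 CPM in WT (log2 fold change 0.14, edgeR adjusted p = 0.837).

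Summed over the 14 chaperones and other ER genes of this branch, levels were 3088, 3632 and 3597 CPM in *Hbb*-cKO, against 3018, 3285 and 2593 CPM in WT. WT replicate 3, the lowest of the WT libraries for 9 of the 15 genes of the branch, was also the library with the most skeletal muscle transcripts, with a marker sum of 48420 CPM against 29770 and 33290 CPM in the other WT libraries. The part of muscle RNA, and that of the cells behind the higher proliferation and endothelial markers of *Hbb*-cKO, was not tested. Genes with short transcripts were also lower in WT replicate 3, and genes with long ones higher. A fit with each library's length trend as an offset, chosen after the data were seen, gave a branch median of 0.21. In that fit 14 of 15 log2 fold changes were above 0. Without WT replicate 3 the branch median was 0.085, with 12 of 15 log2 fold changes above 0, and without WT replicate 2 it was 0.27, with 13 of 15 above 0. Without *Hbb*-cKO replicate 1, the library with the lowest sum of chondrocyte markers, the median was 0.26 and all 15 were above 0. None of the 15 passed the adjusted threshold in edgeR in any of these fits.

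In the PERK and ATF4 branch, no difference of the sensor or its downstream factors passed the test. *Atf4* was at 201, 210.4 and 151 CPM in *Hbb*-cKO, against 190.0, 195 and 195 CPM in WT. The WT libraries lay within the range of the *Hbb*-cKO libraries, and the log2 fold change was -0.044, with a 95% interval from -0.38 to 0.29, or from 0.77 to 1.22 times the WT level. *Ddit3*, which encodes the factor CHOP of prolonged ER stress, was at 19.2, 19.4 and 21.5 CPM in *Hbb*-cKO, against 16.5, 26.6 and 17.0 CPM in WT, with WT replicate 2 above and the other WT libraries below all of *Hbb*-cKO, for a log2 fold change of 0.0018 (95% interval from -0.46 to 0.46, edgeR adjusted p = 0.999). Its exons share 68 bases with *Mars* on the opposite strand, which held 1241 to 1625 counts per library against 275 to 456 for *Ddit3*. A further identifier of *Ddit3* in the table held 1 count per library and was not tested. *Eif2ak3* was at 48.1, 56.4 and 49.5 CPM in *Hbb*-cKO, against 48.6, 43.4 and 51.9 CPM in WT (log2 fold change 0.10). *Trib3*, a pseudokinase gene induced by CHOP, was at 4.03, 4.61 and 3.87 CPM in *Hbb*-cKO, against 5.09, 4.26 and 2.54 CPM in WT, and *Atf3*, a stress-induced repressor, at 20.97, 23.4 and 26.8 CPM in *Hbb*-cKO, against 22.0, 27.8 and 21.6 CPM in WT. Their libraries overlapped, and the log2 fold changes were 0.076 and -0.0029. *Atf5*, a factor translated under the same control as ATF4, was at 110.0, 94.9 and 115 CPM in *Hbb*-cKO, against 101, 89.4 and 80.0 CPM in WT, overlapping only between *Hbb*-cKO replicate 2 and WT replicate 1 (log2 fold change 0.24, edgeR adjusted p = 0.576).

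The log2 fold changes of the metabolic targets of ATF4 were of both signs. *Chac1*, which encodes an enzyme that breaks down glutathione, had its lowest values in *Hbb*-cKO, at 3.92, 3.71 and 3.92 CPM, against 4.73, 5.41 and 5.71 CPM in WT. These CPM rest on 69 to 83 counts per library in *Hbb*-cKO and 79 to 99 in WT, each *Hbb*-cKO library was below each WT library, and the log2 fold change was -0.46 (s.e. 0.18, 95% interval from -0.87 to -0.047, unadjusted p = 0.0332 and edgeR adjusted p = 0.439). Over the whole table, 8.96% of tested genes had no overlap with *Hbb*-cKO below WT. *Sesn2*, whose product restrains mTORC1, also had a lower mean, at 10.9, 8.12 and 10.2 CPM in *Hbb*-cKO, against 12.3, 11.7 and 10.7 CPM in WT, with overlap between the groups (log2 fold change -0.25). *Asns*, the gene of asparagine synthetase, was at 26.3, 25.9 and 24.8 CPM in *Hbb*-cKO, against 28.1, 28.2 and 24.1 CPM in WT (log2 fold change -0.063, 95% interval from -0.33 to 0.21). The genes of serine synthesis had higher means in *Hbb*-cKO. *Psat1* was at 46.3, 34.7 and 39.4 CPM in *Hbb*-cKO, against 34.1, 36.4 and 26.2 CPM in WT (log2 fold change 0.32, edgeR adjusted p = 0.564), and *Phgdh* at 38.8, 40.7 and 42.0 CPM in *Hbb*-cKO, against 34.1, 47.4 and 25.8 CPM in WT (log2 fold change 0.18). WT replicate 3 was the lowest library for both genes, and WT replicate 2 the highest for *Phgdh*. The 12 genes of the branch summed to 536, 523 and 495 CPM in *Hbb*-cKO, against 498, 516 and 462 CPM in WT.

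*Slc7a11*, which encodes the cystine and glutamate exchanger xCT that feeds glutathione synthesis, stood apart. It was at 6.14, 0.852 and 5.99 CPM in *Hbb*-cKO replicates 1, 2 and 3, against 1.20, 0.365 and 0.750 CPM in WT, from 108, 17 and 127 counts in *Hbb*-cKO and 20, 6 and 13 counts in WT. *Hbb*-cKO replicates 1 and 3 were above all WT libraries, and replicate 2 was below WT replicate 1, so that the groups overlapped. The log2 fold change was 2.47 (s.e. 0.78, 95% interval from 0.63 to 4.32), with an unadjusted p of 0.0160 and an adjusted p of 0.349 in edgeR. DESeq2 gave an adjusted p of 0.0255, and over 15 alternatives the adjusted p ran from 0.0255 to 0.78, with log2 fold changes from 2.15 to 2.96. Markers of the neutrophil lineage were high in the same libraries, with sums over the 10 listed genes of 125, 27.1 and 104 CPM in *Hbb*-cKO, against 38.1, 26.1 and 18.1 CPM in WT. Of these markers, *Ly6g* was at 0 in at least 1 library and none was at 0 in all. *Hbb*-cKO replicates 1 and 3 were also the highest libraries for B and plasma cell, adipocyte and proliferation marker sums. For the other marker lists they were not. These replicates also held counts of both *Xist* and Y-linked genes, as did WT replicate 3, whereas *Hbb*-cKO replicate 2 had 6 counts of *Xist*. The part of such cells or of sex in the level of *Slc7a11* was not tested.

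**Figure D3:**
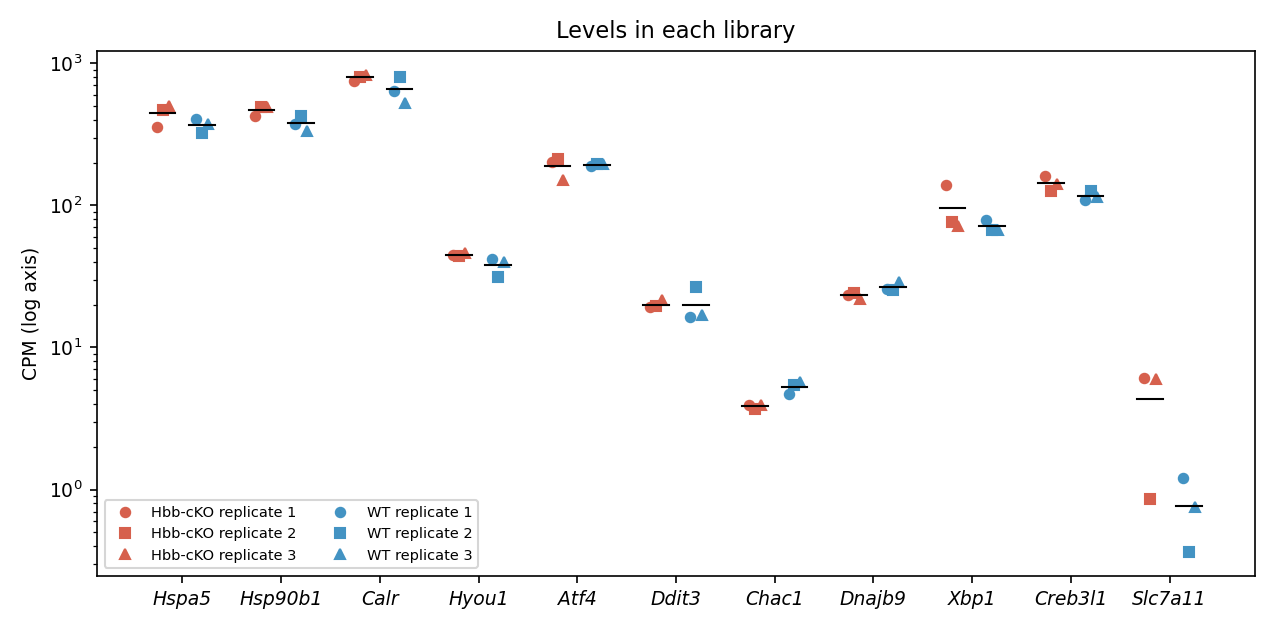
CPM (log axis) of 11 members in each library, *Hbb*-cKO in red left of WT in blue, with the symbol giving the replicate and the bar the mean of 3 libraries. *Hsp90b1* and *Hyou1* lie higher and *Chac1* and *Dnajb9* lower in every *Hbb*-cKO library, *Slc7a11* is at 6.14 and 5.99 CPM in *Hbb*-cKO replicates 1 and 3 but 0.852 in replicate 2, and *Xbp1* is high only in *Hbb*-cKO replicate 1.

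In the IRE1 and XBP1 branch, no member passed the test and the median log2 fold change was -0.025. *Xbp1* was at 139, 76.2 and 71.4 CPM in *Hbb*-cKO, against 79.5, 67.2 and 67.1 CPM in WT. The higher mean rested on *Hbb*-cKO replicate 1, which was above every other library, while replicates 2 and 3 lay within the WT range, for a log2 fold change of 0.42 (s.e. 0.26, edgeR adjusted p = 0.626) and of 0.058 without that replicate. The same library had the highest summed level of osteoblast markers, at 427 CPM against 229 and 295 CPM in the other *Hbb*-cKO libraries and 250 to 328 CPM in WT, and of B and plasma cell markers, at 31.8 CPM against 6.23 to 21.1 CPM in the other libraries. *Jchain* of that last list was at 0.17, 0 and 0.19 CPM in *Hbb*-cKO, against 0.54, 0.73 and 0.58 CPM in WT, below all of WT in the library with the highest sum. *Hbb*-cKO replicate 1 was also the highest library for hypertrophic chondrocyte (3161 CPM), macrophage and osteoclast (1587), neutrophil (125), endothelial (679) and adipocyte (799) marker sums. It was the lowest for chondrocyte markers, and not the highest for tendon, muscle, erythroid and proliferation markers. The part of any of these cells in the *Xbp1* level was not tested. These counts take spliced and unspliced *Xbp1* together, so the splicing by IRE1 was not measured. *Ern1* was at 16.0, 19.4 and 18.4 CPM in *Hbb*-cKO, against 21.9, 14.1 and 24.1 CPM in WT (log2 fold change -0.16), with WT replicate 2 the lowest library and the other WT libraries the highest.

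*Dnajb9*, a target of XBP1 whose product ERdj4 helps BiP to bind IRE1, had no overlap and a lower mean, at 23.6, 24.3 and 21.8 CPM in *Hbb*-cKO, against 25.9, 25.4 and 28.8 CPM in WT. Its log2 fold change was -0.20 (s.e. 0.12, 95% interval from -0.47 to 0.069), with an adjusted p of 0.607 in edgeR. *Sel1l*, the adaptor of the ubiquitin ligase that clears misfolded ER proteins, was at 81.9, 104 and 88.4 CPM in *Hbb*-cKO, against 103, 75.3 and 102 CPM in WT. *Edem1*, which marks glycoproteins for that route, was at 61.0, 56.0 and 53.7 CPM in *Hbb*-cKO, against 53.4, 54.4 and 51.5 CPM in WT, with a log2 fold change of 0.10 (95% interval from -0.14 to 0.34).

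The OASIS family members are membrane-bound factors cleaved like ATF6. *Creb3l1*, which encodes OASIS and drives collagen synthesis in osteoblasts of mice, was at 160.2, 126 and 141 CPM in *Hbb*-cKO, against 109, 126 and 115 CPM in WT. *Hbb*-cKO replicate 2 and WT replicate 2 were nearly level, the other *Hbb*-cKO libraries were above all of WT, and the log2 fold change was 0.28 (s.e. 0.13, 95% interval from -0.0087 to 0.58, edgeR adjusted p = 0.503). *Creb3l2*, the family member of chondrocytes, was at 103, 142 and 132 CPM in *Hbb*-cKO, against 134, 110.1 and 138 CPM in WT, with overlapping groups and a log2 fold change of -0.021 (95% interval from -0.38 to 0.34).

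Ratios of members within a library do not depend on library scaling, and 4 were compared by two-sided exact permutation tests, which cannot go below p = 0.1 with 3 libraries against 3. The log2 ratio of *Atf4* to *Hspa5* CPM was -0.83, -1.16 and -1.73 in *Hbb*-cKO and -1.10, -0.71 and -0.94 in WT, a difference of -0.32 (s.e. 0.29, exact p = 0.4 and 0.8 adjusted over the 4 ratios). That of *Ddit3* to *Hspa5*, the marker of the CHOP arm over that of the chaperones, was -4.22, -4.60 and -4.54 in *Hbb*-cKO and -4.63, -3.59 and -4.46 in WT, a difference of -0.23 (s.e. 0.34, exact p = 0.7 and 0.933 adjusted). The highest of these values belonged to WT replicate 2. The ratio of *Xbp1* to *Hspa5* differed by 0.096 (s.e. 0.46, exact p = 1) and that of the sensors *Eif2ak3* to *Ern1* by 0.23 (s.e. 0.17, exact p = 0.4, 0.8 adjusted).

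Part of the spread of the members within WT followed transcript length. Of the 34 members, 17 had their highest WT level in WT replicate 2 and 12 their lowest there, where 38.3% and 37.8% of all genes did. The 17 had a median length of the longest annotated transcript of 2184 bases, and the 12 of 5033 bases. The short *Ddit3* (969 bases) was 0.67 higher in log2 CPM in WT replicate 2 than in the mean of the other WT libraries, whereas *Ern1* (6946 bases) was 0.70 lower. Across the 34 members, which share the libraries, Pearson's r between log2 length and this difference was -0.781 and Spearman's rho -0.669. Over all genes, sorted by length into 5 groups of equal size, the median difference was 0.27 in the group with the shortest transcripts and -0.27 in that with the longest, with r = -0.30 over 17159 genes. The chaperones *Manf* and *Creld2* were above that trend and *Herpud1* below it. A smaller trend in WT replicate 3 ran the other way. Relative to the mean of all libraries, its median log2 CPM was -0.077 in the shortest group and 0.133 in the longest. In WT replicate 2 these values were 0.226 and -0.196. The 18 members lowest of WT in replicate 3 had a median length of 2179 bases, and the 6 highest there of 5729 bases. Of all genes, 37.6% were lowest and 36.9% highest there. When the length trend of each library was entered as an offset, chosen after the data were seen, 0 of the 34 members and 21 of all genes were called by edgeR, the members' median log2 fold change was 0.14, and 5 members (*Hsp90b1*, *Creb3l1*, *Atf5*, *Hyou1* and *Slc7a11*) had an unadjusted p under 0.05, which is 14.7% of the members against 11.3% of all genes. Without WT replicate 2, 9 members had such a p (26.5%, against 12.4% of all genes), without WT replicate 3 none had (against 12.1% of all genes), and in neither fit did a member pass the adjusted threshold.

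**Figure D4:**
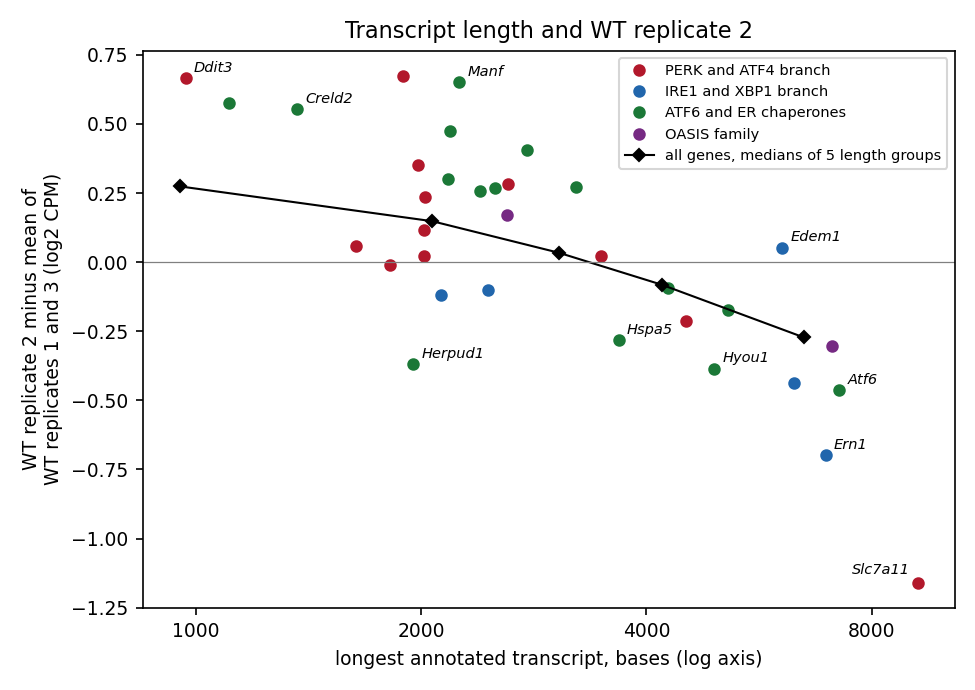
Log2 CPM of each member in WT replicate 2 minus the mean of WT replicates 1 and 3 (y axis) against the length of its longest annotated transcript in bases (log axis), coloured by branch, with the medians of 5 equal groups of all tested genes by length in black. The black line runs from 0.27 at the short end to -0.27 at the long end, and the members scatter widely around it, with *Manf* and *Creld2* above and *Herpud1* below, *Ddit3* at 0.67 and *Slc7a11*, the longest, lowest.

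Of the genes around these branches, 118 on 8 further lists were tested and 0 passed in edgeR, with 13 at an unadjusted p under 0.05 (6 with higher and 7 with lower means in *Hbb*-cKO), or 11% against 10.1% of all genes, and a median log2 fold change of 0.058. The haem-regulated eIF2α kinase gene *Eif2ak1* was at 54.9, 47.3 and 48.7 CPM in *Hbb*-cKO, against 50.9, 51.8 and 52.3 CPM in WT, a log2 fold change of -0.039 (95% interval from -0.28 to 0.20). The kinase genes *Eif2ak2* (PKR) and *Eif2ak4* (GCN2) had log2 fold changes of 0.26 and -0.092, *Eif2s1*, which encodes eIF2α itself, 0.17, and the phosphatase subunit genes *Ppp1r15a* (GADD34) and *Ppp1r15b* 0.0070 and 0.15. The libraries overlapped for all 6, and the lowest adjusted p was 0.671 in edgeR. Of the 28 tested genes of the amino acid response, 12 had positive log2 fold changes and the median was -0.098. *Cebpb*, which encodes a partner of ATF4, was at 40.4, 27.8 and 31.7 CPM in *Hbb*-cKO, against 46.4, 42.8 and 52.5 CPM in WT (log2 fold change -0.51, edgeR adjusted p = 0.331), and *Psph*, the last enzyme of serine synthesis, had a log2 fold change of -0.40, in contrast to the positive values of *Psat1* and *Phgdh*. The tRNA synthetase genes *Aars* and *Eprs* had log2 fold changes of 0.25 and 0.23, with no overlap.

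The list of XBP1 targets in the secretory pathway had 24 of 26 log2 fold changes above 0, against 47.5% of all genes, and 7 genes without overlap, all higher in *Hbb*-cKO, where 8.7% of all genes had such values. Its median was 0.19, and 0.11 without WT replicate 3 or 0.31 without WT replicate 2. *Stt3a*, a catalytic subunit of the oligosaccharyltransferase, was at 194, 238 and 214 CPM in *Hbb*-cKO, against 181, 185 and 156 CPM in WT (log2 fold change 0.31). *Srprb* of the signal recognition particle receptor and the chaperone gene *Hspa13* had log2 fold changes of 0.29 and 0.34, and *Sec61a1*, the channel through which proteins enter the ER, of 0.18 with overlapping libraries. The lowest adjusted p of this list was 0.427 in edgeR. Among 15 genes of ER-associated degradation, the median was 0.0095, but *Vcp*, which encodes the ATPase p97 that pulls proteins out of the ER, was at 139, 141 and 189 CPM in *Hbb*-cKO, against 279, 307 and 299.9 CPM in WT. All *Hbb*-cKO libraries were below all of WT (log2 fold change -0.91, s.e. 0.15, edgeR adjusted p = 0.102 and 3.6e-05 in DESeq2), so that the call depended on the method. *Calu*, which encodes an ER calcium-binding protein, was at 403, 551 and 779.6 CPM in *Hbb*-cKO, against 359, 184 and 337 CPM in WT (edgeR adjusted p = 0.357), and *P4hb*, the isomerase that is also a subunit of collagen prolyl hydroxylase, had a log2 fold change of 0.13. The other folding lists had medians of 0.078 for 16 genes of ER redox and folding, 0.035 for 11 of ER sensors and cleavage (with *Crebrf* at -0.68, *Bax* at -0.41 and *Tmbim6* at 0.035), -0.039 for 10 cytosolic heat shock genes (*Hspb1* at -0.72, *Hsp90ab1* at 0.0096) and -0.016 for 6 mitochondrial chaperones (*Hspa9* at 0.036), with no call in edgeR. Leaving out 1 library, these medians ran from 0.037 to 0.16 for ER redox and folding, from -0.0076 to 0.23 for ER sensors, from -0.040 to 0.061 for cytosolic heat shock and from -0.061 to 0.049 for mitochondrial chaperones. The medians of the amino acid response and of ER-associated degradation ran from -0.12 to -0.019 and from -0.013 to 0.078.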

How the data were processed

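Poly(A) RNA of knee joint cartilaginous tissue from P6 mice was sequenced on an Illumina HiSeq instrument from TruSeq RNA libraries. The values deposited by the authors are raw counts, with 1 row per gene and a column for each of the 6 libraries. Among the tools in the submitters' processing notes are HISAT2 2.1.0, StringTie, fastp 0.19.5, CASAVA 1.8 and edgeR. For the counting, settings, genome build and strand are not given in the sources. Gene positions equalled those of GENCODE M21 (GRCm38) for 99.4% of the 55227 identifiers found there, from which exon and transcript lengths were taken. Groups were taken from the genotype label of each library. Counts of any pair of libraries differed by more than sampling noise (chi-square of 22.2 to 61.0 per gene).

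Of 31373 genes with a count, 17175 passed edgeR's filter (minimum count 10, minimum total 15). *Hbb*-cKO was compared with WT in edgeR 4.0.16 on R 4.3.3 by TMM scaling, a robust quasi-likelihood fit and Benjamini-Hochberg adjustment over all tested genes, with a threshold of 0.05. The fit was tested on simulated counts of 3 against 3 libraries, with 50 genes altered at each size. The edgeR test detected 3 of these at 1.5 times and 22 at 2 times. It detected 42 at 4 times and 48 at 8 times, and 14 of its 129 calls were false. On the same simulated counts DESeq2 detected 11 at 1.5 times and 26 at 2 times, and 41 of its 172 calls were false. In edgeR more of the simulated differences of 1.5 and of 2 times were missed than detected. The absence of calls among the members therefore does not exclude differences of those sizes. CPM were computed on TMM-scaled library sizes, log2 CPM with a prior count of 2, and error values are s.e.m. over 3 libraries. Ratios were compared by exact permutation tests. Promoter windows were RefSeq's on GRCm38.p6, and in 28 of the 32 member windows the bases after the start were found in a transcript of the gene in the forward direction. The planned search of protein ends was not run, since protein sequences were not used here.

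The members, branches, pathway lists and markers were chosen with earlier results of these data known. The text names all 34 members, the 6 genes of eIF2α kinases and phosphatases, and of each other list up to 3 genes with the smallest unadjusted p under 0.05 and the 1 with the highest CPM. Alternatives were DESeq2 1.42.0, RLE factors, TMM without globin genes, no scaling, 2 other filters, a replicate block, a fit without robust dispersions, a threshold of 0.1 and leaving out each library. A transcript length offset was added after the data were seen. Of the members, 9 share exon bases with another gene, and where counting was not stranded such reads cannot be assigned.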

Additional observations from a re-analysis of the deposited data

How the results depend on the processing

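With 3 libraries per genotype, the 95% intervals of the members' log2 fold changes had a median width of 0.73, and *Slc7a11* rested on 6 to 127 counts per library. Over 15 alternatives, 22 of the 34 members kept 1 sign and 12 did not, and the members' median log2 fold change ran from 0.042 (without WT replicate 3) to 0.17 (without WT replicate 2). No member passed in edgeR under any alternative, the threshold of 0.1 included, whereas DESeq2 called 1 (*Slc7a11*, log2 fold change 2.49). In the simulated counts, 41 of the 172 calls of DESeq2 were false, against 14 of 129 in edgeR. Over all genes, DESeq2 called 249, edgeR without a filter 60, edgeR with a replicate block 4 and edgeR at a threshold of 0.1 41, against 18, and leaving out a library gave 1 (without WT replicate 1) to 39 (without WT replicate 3). Of the other pathway lists, DESeq2 and edgeR without a filter each called 1 gene, *Vcp*. Whether the replicate numbers pair the libraries is not known from the labels. Same-numbered libraries had correlations of deviations of -0.026, -0.108 and -0.029, which cannot exclude a shared litter or preparation. The block gave 0 members called and a member median of 0.14.

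Leaving out 1 library moved the ATF4 branch median from -0.052 (without WT replicate 3) to 0.14 (without WT replicate 2). It also turned the sign of some members. With all libraries, *Phgdh* and *Manf* of these were at 0.18 and 0.14, and the others were closer to 0. Leaving out 1 library, log2 fold changes ran from -0.13 to 0.094 for *Atf4*, -0.11 to 0.28 for *Ddit3*, -0.16 to 0.30 for *Trib3*, -0.096 to 0.14 for *Atf3*, -0.0067 to 0.45 for *Phgdh*, -0.14 to 0.057 for *Sel1l*, -0.22 to 0.074 for *Herpud1*, -0.040 to 0.083 for *Canx*, -0.017 to 0.083 for *Dnajc3*, -0.030 to 0.40 for *Manf*, -0.092 to 0.29 for *Creld2* and -0.12 to 0.11 for *Creb3l2*. Among the other genes named, the ranges were -0.19 to 0.049 for *Eif2ak4*, -0.100 to 0.0045 for *Eif2ak1*, -0.18 to 0.17 for *Ppp1r15a*, -0.034 to 0.10 for *Tmbim6*, -0.022 to 0.072 for *Hsp90ab1* and -0.030 to 0.20 for *Hspa9*. The ratio of *Ddit3* to *Hspa5* ran from -0.43 to 0.091 and that of *Xbp1* to *Hspa5* from -0.36 to 0.37. With all libraries, *Atf4* turned to 0.0042 with the length offset, *Ddit3* to -0.0004 with the filter at 1 CPM, *Creb3l2* to 0.0002 without scaling, and *Atf3* to 0.0048 in DESeq2, 0.0043 with RLE factors, 0.0070 with TMM without globin genes, 0.023 without scaling, 0.011 without a filter and 0.050 with the length offset. The cause of these turns was not tested.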
